A study of Mus musculus with 3 samples.

Results

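The 10 genes described here, Apoe, Trem2, Gpnmb, Lpl, Fabp5, Ctsd, Cd9, Spp1, Lgals3 and Cd36, are genes that macrophages use to take up, carry and break down lipid and cell debris. They were chosen by name, as members of the lipid-handling and lysosomal program of macrophages, out of 32285 genes in the count tables, and all 10 passed the filter on low counts. They were measured by single-cell RNA sequencing in live CD45+ immune cells sorted from the islets of female wild-type NOD mice, a strain that develops autoimmune diabetes as lymphocytes infiltrate the islets. The mice were 15 to 16 weeks old by the study's methods and from 14 weeks by a figure legend, all shared the same genotype and received no treatment, and islets of 2 to 3 mice were pooled for each of 3 libraries. With 1 condition, the comparisons are between classes of cells in the same libraries. In the data as classified here, 68 of 26142 cells were macrophages (31, 10 and 27 in libraries 1, 2 and 3), set beside 211 dendritic cells, 4936 B cells and 18078 T cells.

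Macrophages clear dying cells and lipoproteins. Apolipoprotein E (Apoe) carries cholesterol out of the cell and also binds TREM2, a surface receptor for lipids and apolipoproteins. CD36 is a scavenger receptor for fatty acids and oxidized lipoprotein, and lipoprotein lipase (Lpl) releases fatty acids that the fatty acid binding protein FABP5 then carries inside the cell. Cathepsin D (Ctsd) is a protease of the lysosome, and GPNMB is a membrane glycoprotein of lysosomes and phagosomes. Galectin-3 (Lgals3) binds sugar chains at the surface and at damaged lysosomes, CD9 is a tetraspanin of the membrane, and osteopontin (Spp1) is secreted. In fatty tissue, atherosclerotic plaques and brain, phagocytes that express many of these genes together have been described as lipid-associated or damage-associated macrophages.

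Class was set by unique molecular identifiers (UMIs, each 1 captured RNA molecule) of a few genes, none of them a member. A macrophage held at least 5 UMIs of C1qa and C1qb, with no limit on the dendritic cell genes. A dendritic cell held at least 2 UMIs of Flt3, Zbtb46, Xcr1, Clec9a and Cd209a and at most 2 of C1qa and C1qb. A B cell held at least 2 of Cd79a and no Cd3e, and a T cell at least 1 of Cd3e. All 68 macrophages held a UMI of Csf1r, Adgre1 or Lyz2, with C1qc in 65 and Csf1r in 61, and the NK cell and mast cell markers were at 0. Among other macrophage markers, Adgre1 and Fcgr1 were in 48 each, Cx3cr1 in 25 and Mertk in 3. Csf1r was also in 71 and Lyz2 in 36 of the 211 dendritic cells. The dendritic cell markers Ccr7, Batf3 and Siglech were in 9, 10 and 3 macrophages. The summed endocrine markers (insulin genes and 4 others, 6 of 6 detected) reached 143, 7.93 and 1380 CPM (UMIs scaled to the total of the class in that library) in the macrophages of libraries 1, 2 and 3, and their part in the results was not tested. The dendritic gate was not pure, because 58 of its 211 cells held a UMI of Siglech, a plasmacytoid dendritic cell marker, so the values that depend on this are given with and without those cells. The class totals were 558022 UMIs for macrophages and 2577472 for dendritic cells, against 34423864 for B cells and 136026884 for T cells, so that counting error was largest in macrophages. Of the 68 macrophages, 45 had 6000 or more UMIs, which is at or over the upper limit in the study's methods, and 23 were within all the study's limits. Pairs of libraries shared 59 cell barcodes. At the edge of the gate, the 8 macrophages with 5 to 9 UMIs of C1qa and C1qb held 1351 CPM of Apoe and no Trem2, Gpnmb or Lpl. The 2 cells outside with 3 to 4 held 1578 CPM of Apoe, and the 55 with 20 or more held 5011 CPM. Against those 55, the 8 held less Cd36 (45.4 against 169 CPM) and more of the other members. Spp1 was at 341 against 33.7 CPM and Lgals3 at 1953 against 901 CPM. Fabp5 was at 556 against 299 CPM, Cd9 at 318 against 175 CPM and Ctsd at 466 against 402 CPM.

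Promoters are shown for Ctsd and Gpnmb, the lysosomal members, because each held a short motif of a transcription factor family with a role in these cells. Of the 10 members, 8 had a promoter in the RefSeq table of GRCm38.p6, which gives 250 bases before and 50 bases after each start site; Lpl and Fabp5 were not in it. Both strands were searched for TCACGTGA (the element bound by TFEB and MITF, which drive lysosomal genes), TCATGTGA (its M-box relative), TGAGTCA (the AP-1 site) and TATAAA (the TATA box). TCACGTGA was found in 1 of the 8, in Ctsd, and in 1.12% of 27025 genes, and TGAGTCA in Gpnmb alone and in 5.95% of genes. TCATGTGA was in no member (1.15% of genes), and TATAAA was in Spp1 and Apoe (15.7% of genes). Capitals mark TCACGTGA in Ctsd, at 99 to 92 bases before the start site, and TGACTCA, the AP-1 site read on the other strand, at bases 9 to 15 after the start of Gpnmb. The Ctsd window is chr7:142387778-142388077 on the minus strand and the Gpnmb window is chr6:49036268-49036567 on the plus strand.
Ctsd: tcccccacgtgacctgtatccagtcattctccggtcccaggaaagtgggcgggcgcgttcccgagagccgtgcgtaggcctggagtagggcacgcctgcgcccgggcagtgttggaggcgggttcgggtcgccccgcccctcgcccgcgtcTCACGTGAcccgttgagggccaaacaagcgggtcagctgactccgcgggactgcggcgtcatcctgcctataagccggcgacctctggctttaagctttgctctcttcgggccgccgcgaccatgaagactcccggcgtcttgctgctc
Gpnmb: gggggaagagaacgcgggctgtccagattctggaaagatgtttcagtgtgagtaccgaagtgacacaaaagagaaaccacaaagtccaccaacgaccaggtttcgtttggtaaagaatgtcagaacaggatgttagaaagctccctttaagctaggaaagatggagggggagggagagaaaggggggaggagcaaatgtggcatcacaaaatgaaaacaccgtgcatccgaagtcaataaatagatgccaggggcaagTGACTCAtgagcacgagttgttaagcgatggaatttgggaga
A match describes the letters in the window only. By GENCODE M21, the genes lie at chr7:142375911-142388038 (Ctsd) and chr6:49036546-49070929 (Gpnmb), and Apoe and Trem2 at chr7:19696109-19699188 and chr17:48346401-48354147, all on GRCm38. For Ctsd and Gpnmb these gene starts differ from the RefSeq start sites used above. On the GENCODE spans the Gpnmb match lies before the gene and the Ctsd match inside it.

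Levels are given in CPM, each from the summed cells of a class in 1 library. Across the 4 classes the members fell into 3 kinds. Apoe, Trem2, Gpnmb and Lpl were measured in macrophages, Gpnmb at a low level, and were almost absent from dendritic cells. Ctsd, Cd36 and Spp1 were higher in macrophages than in dendritic cells but measured in both, and Lgals3, Fabp5 and Cd9 were carried by both myeloid classes. In bulk sums such as these, fewer expressing cells and less RNA per cell cannot be told apart, and per-cell values follow further on.

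**Figure D1:**
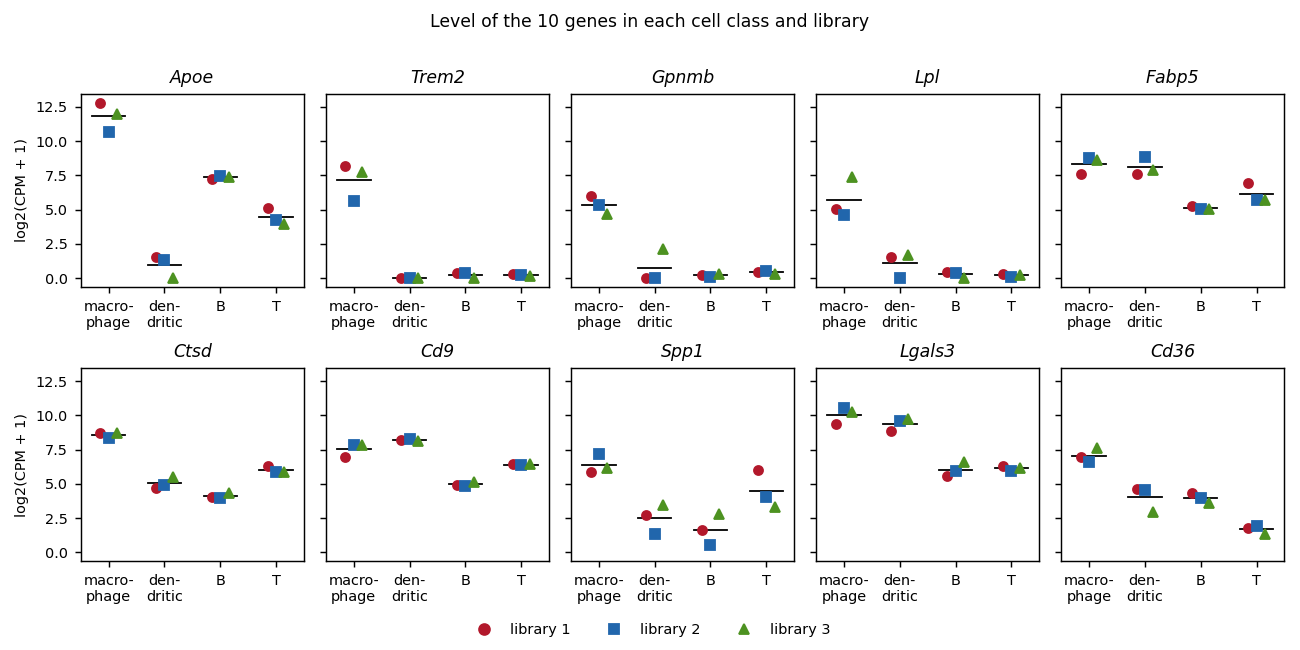
Level of each gene in the 4 cell classes, as log2(CPM + 1) on the vertical axis; each symbol is the summed cells of 1 library and the bar is the mean of the 3 libraries. Apoe, Trem2, Gpnmb and Lpl stood high in macrophages and near 0 in dendritic cells, while Fabp5, Lgals3 and Cd9 were measured in both, Cd9 lower in macrophages in each library.

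Among the carriers and receptors of lipid, Apoe was the highest, at 7088, 1593 and 3989 CPM in the macrophages of libraries 1, 2 and 3. Dendritic cells held 1.93, 1.53 and 0 CPM of Apoe, which is 3 UMIs in all, and the pooled ratio was 3865 (95% exact counting interval 1321 to 18752). B cells, at 151, 173 and 161 CPM, and T cells, at 33.8, 17.7 and 14.5 CPM, were far below macrophages and far above dendritic cells in every library. The log2 fold change of macrophages was 4.38 (SE 0.36, adjusted p = 8.4e-08) over B cells and 7.50 (SE 0.41, adjusted p = 7.3e-10) over T cells.

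Trem2 was at 285, 47.6 and 214 CPM in macrophages, with the lowest value again in library 2, where 2 of 10 macrophages held 6 UMIs. No dendritic cell held a Trem2 UMI, so macrophages were at least 172-fold higher, against a floor of 3 UMIs over all dendritic cells together. B cells held 7 Trem2 UMIs and T cells 22, at no more than 0.284 CPM in any library. The log2 fold changes were 9.57 (SE 0.67, adjusted p = 6.8e-08) over B cells and 9.79 (SE 0.64, adjusted p = 2.6e-08) over T cells.

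Cd36 was lower and steadier, at 122, 95.1 and 198 CPM in macrophages and 23.1, 23.0 and 6.77 CPM in dendritic cells, and the classes did not overlap. Macrophages were higher by 3.08 on the log2 scale (SE 0.42, adjusted p = 8.6e-05). B cells held 19.5, 14.3 and 11.2 CPM of Cd36 and T cells 2.48, 2.81 and 1.55 CPM. Lpl in macrophages had the widest range over libraries among the 10 for its mean, at 31.7, 23.8 and 169 CPM, and was at 1.93, 0 and 2.26 CPM in dendritic cells. Its log2 fold change over dendritic cells was 5.56 (SE 0.89, adjusted p = 0.00036).

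Among the lysosomal members, Ctsd was at 418, 317 and 420 CPM in macrophages and 25.1, 29.1 and 45.1 CPM in dendritic cells. In library 1 a single macrophage held 39 of the 79 Ctsd UMIs, and without the leading cell of each library, a setting chosen after the data were seen, the macrophage levels were 221, 218 and 383 CPM. The log2 fold change was 3.52 (SE 0.22, adjusted p = 8.3e-08). Ctsd was at 15.6, 15.0 and 19.6 CPM in B cells and at 79.4, 58.3 and 58.6 CPM in T cells, so T cells stood above both dendritic cells and B cells in every library. Gpnmb was near the limit of detection, with 23 UMIs in all macrophages (63.4, 39.6 and 24.7 CPM). Dendritic cells held 3 Gpnmb UMIs, all in library 3, and the pooled ratio was 35.4 (95% exact counting interval 10.7 to 184, counting error only). In library 3, without thinning, 1 of 27 macrophages and 3 of 63 dendritic cells held a Gpnmb UMI.

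Lgals3, Fabp5 and Cd9 were shared with dendritic cells. Lgals3 was at 655, 1522 and 1187 CPM in macrophages and 462, 752 and 837 CPM in dendritic cells, higher in macrophages within each library but overlapping across them (log2 fold change 0.65, SE 0.23, adjusted p = 0.058). Fabp5 did not pass the test, at 196, 436 and 400 CPM in macrophages and 194, 448 and 238 CPM in dendritic cells (log2 fold change 0.22, SE 0.37, adjusted p = 0.73), and its sign turned in 4 of the alternative settings. Cd9 was lower in macrophages, at 122, 230 and 227 CPM against 293, 309 and 285 CPM in dendritic cells (log2 fold change -0.69, SE 0.19, adjusted p = 0.018). The Cd9 call did not hold without library 1 (adjusted p = 0.15), without library 2 (adjusted p = 0.054), with DESeq2 (adjusted p = 0.060) or with sums of macrophages and dendritic cells alone (adjusted p = 0.25), while Cd9 stayed lower in macrophages in each.

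Spp1 was at 58.1, 143 and 70.1 CPM in macrophages and 5.78, 1.53 and 10.1 CPM in dendritic cells (log2 fold change 3.81, SE 1.21, adjusted p = 0.037). Its value rested on few cells, since 14 of the 18 Spp1 UMIs of library 2 and 12 of the 17 of library 3 were in 1 cell each. Of the 46 Spp1 UMIs of macrophages, 30 were in the 8 cells with 5 to 9 UMIs of C1qa and C1qb. These were all 18 of library 2 and the 12 of library 3. Without the leading cell of each library, a setting chosen after the data were seen, the mean macrophage level was 31.9 CPM, down from 90.3 ± 45.8 CPM (SD, n = 3). In T cells Spp1 was at 63.2, 15.8 and 9.16 CPM, above the macrophages in library 1 and below them in libraries 2 and 3. Against dendritic cells its call did not hold without library 1 (adjusted p = 0.097), without library 2 (adjusted p = 0.099) or with a macrophage gate of 20 UMIs (adjusted p = 0.34).

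Read together against dendritic cells, 7 of the 10 members were higher in macrophages and 1 was lower, where 8.16% of 11505 genes tested were higher and 11.3% lower. The members' median log2 fold change was 3.66, the same with Trem2 set to its bound, against -0.34 over all genes. DESeq2 gave 8 members higher and 0 lower, with 1229 genes higher and 808 lower in place of 939 and 1295, so the split of all calls leaned the other way (median over all genes -0.07). Against B cells, 10 of 10 members were higher (15.8% of genes higher and 20.4% lower, member median 4.39 against -0.50 over all genes). Against T cells, 9 of 10 were higher (15.4% of genes higher and 20.6% lower, member median 4.94 against -0.48), and Spp1 was the exception at a log2 fold change of 1.74 (SE 0.84, adjusted p = 0.12). With the macrophage gate of 20 UMIs, Spp1 over B cells (adjusted p = 0.11) and Cd9 over T cells (adjusted p = 0.076) were no longer called. Cd9 over T cells was also lost with free RNA subtracted (adjusted p = 0.096). That setting took the lower of the B and T cell levels of each gene as free RNA, without an estimate of free RNA. These comparisons share the macrophage sums and are not independent of each other.

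**Figure D2:**
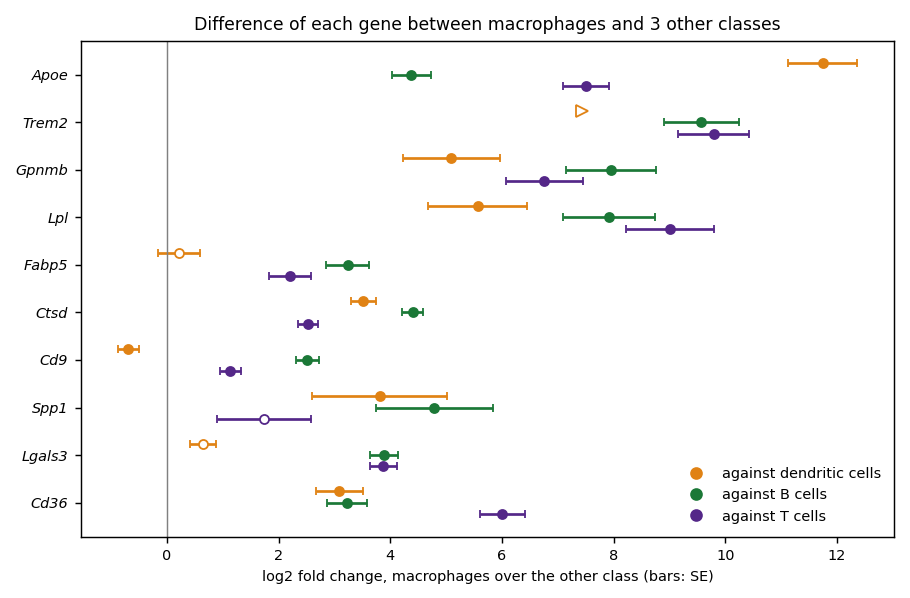
Log2 fold change of each gene (horizontal axis) in macrophages over dendritic cells, B cells and T cells from the edgeR fit, with bars of 1 SE. Open circles did not pass an adjusted p of 0.05. The open triangle is the bound for Trem2 from a floor of 3 UMIs, since no dendritic cell held it. The estimates over dendritic cells ran from -0.69 for Cd9 to 11.74 for Apoe.

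Some members differed within the dendritic gate itself. Dendritic cells without a Siglech UMI held Cd9 at 345, 411 and 410 CPM and those with Siglech at 49.3, 23.4 and 10.8 CPM, and Fabp5 went the same way (227, 574 and 335 against 38.4, 93.6 and 25.2 CPM). Ctsd went the opposite way, at 14.04, 22.8 and 16.4 CPM without and 76.7, 46.8 and 108 CPM with Siglech. For each of these 3 genes, named after their values were seen, the 3 libraries of one kind did not overlap those of the other. The share of all genes without overlap was not counted. With the Siglech cells left out, a setting chosen after the data were seen, 7 members were higher and 1 lower, as before. Of all 11436 genes tested there, 990 were higher and 991 lower. Lgals3 now passed the test (log2 fold change 0.93, adjusted p = 0.011) and Spp1 did not (adjusted p = 0.053).

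The other genes of the same pathways gave a wider view. Of 17 tested genes of lipid transport and metabolism, 12 were higher in macrophages than in dendritic cells and 0 were lower, with a median log2 fold change of 1.499. Abca1, which exports cholesterol, was at 122, 214 and 190 CPM in macrophages and 0.964, 12.2 and 2.26 CPM in dendritic cells (log2 fold change 5.25, SE 0.37, adjusted p = 1.7e-07). Nr1h3, the LXR-alpha receptor that senses oxysterols, was at 47.6, 111 and 82.4 CPM against 1.93, 6.12 and 2.26 CPM. Msr1, a scavenger receptor, had 43 UMIs in macrophages and 1 in dendritic cells, a pooled ratio of 199 (95% exact counting interval 33.8 to 8025), and Pparg, a lipid-sensing nuclear receptor, had 7 and 1.

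Of 24 lysosomal genes, 15 were higher in macrophages and 2, Gm2a and Ctsl, were lower (named after their values were seen), with a median of 1.19. Among those with the largest called changes were Cd63, a tetraspanin of late endosomes (log2 fold change 2.85, SE 0.31), and the glycosidases Gla (2.45, SE 0.30) and Neu1 (2.32, SE 0.40), with adjusted p between 9.1e-06 and 0.00072. Ctsd, at 3.52, thus stood above every gene of this list that was called. Of 9 genes of TREM2 signalling, 2 were higher and 2 lower, with a median of -0.02: Ms4a7 (6.82, SE 0.52) and the sheddase Adam17 (1.06, SE 0.21) were higher, and the kinase subunit Pik3cg (-4.52, SE 0.92) and the phosphatase Inpp5d (-0.97, SE 0.20) were lower. Pik3cg rested on 1 UMI in macrophages. The adaptor Tyrobp, through which TREM2 signals, did not differ by the test (log2 fold change -0.02, adjusted p = 0.98).

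Of 10 tested genes that define damage-associated phagocytes, 7 were higher and 1 was lower, with a median of 3.32. The lower one was Cadm1 (log2 fold change -1.40, SE 0.39, adjusted p = 0.018). The 2 others, Cst7 (-1.81, SE 1.08, adjusted p = 0.28) and Itgax (-0.60, SE 0.49, adjusted p = 0.44), did not pass the test. Axl, a receptor for dying cells, was at 116, 198 and 185 CPM in macrophages and held 3 UMIs in dendritic cells (pooled ratio 142, 95% exact counting interval 47.0 to 699). Mmp12, a macrophage elastase, was at 428 CPM in library 1, 15.9 in library 2 and 0 in library 3 (0, 6.12 and 5.64 CPM in dendritic cells), and the depth of the macrophages of library 3 was too low to place that 0 against the dendritic cells. These lists were chosen with results of these data known, and their counts are read beside the 8.16% and 11.3% given for all genes.

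Over the 3 libraries together most UMIs of 9 of the 10 members lay outside macrophages, although macrophages held 52.2% of those of Gpnmb in library 1. Macrophages, 68 of 26142 cells, held 67.5% of the 166 Trem2 UMIs (83.1%, 18.2% and 76.5% in libraries 1, 2 and 3) and 78.6% of those of C1qc, a complement gene typical of macrophages. They held 23.2% of the 10836 Apoe UMIs, while B cells held 51.9% and T cells 23.3%. For Fabp5, Ctsd, Cd9 and Lgals3 macrophages held between 0.688% (Cd9) and 3.39% (Lgals3), and T cells held from 51.1% (Lgals3) to 78.9% (Ctsd). Of the 2881 Spp1 UMIs, 92.1% were in T cells, and of the 1121 Cd36 UMIs 46.1% were in B cells.

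**Figure D3:**
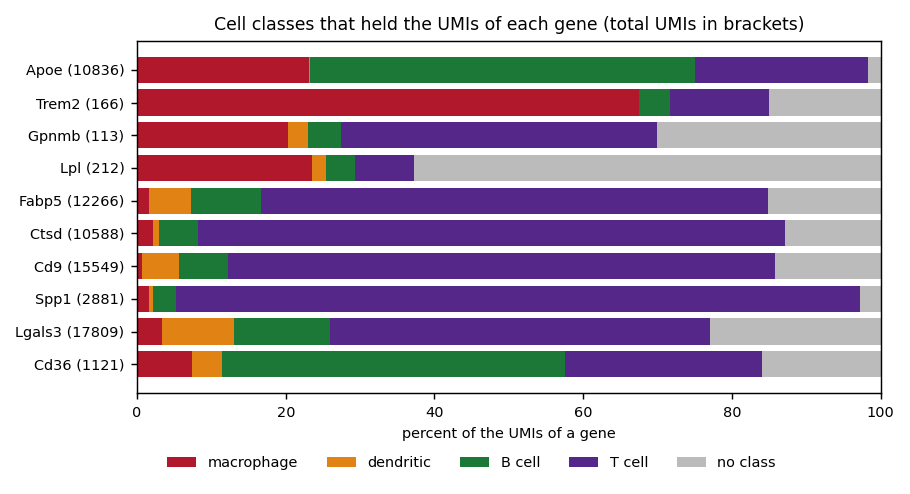
Percent of all UMIs of each gene (horizontal axis) held by macrophages, dendritic cells, B cells, T cells and cells of no class, with the total number of UMIs beside each name. Macrophages held 67.5% of Trem2 UMIs and 23.2% of Apoe UMIs, and T cells held 92.1% of Spp1 UMIs.

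Lpl was the member with the largest share of its UMIs outside the 4 classes. Cells of no class held 62.7% of its 212 UMIs, in 17 of 2849 such cells, and 1 cell of library 3 held 47 of them. Those cells held markers of several types, counted at 3 or more UMIs of a list: 118 of the 133 Lpl UMIs lay in 9 cells with plasmacytoid dendritic cell markers, 105 in 6 cells with ductal markers and 95 in 7 with plasma cell markers. Cells with conventional dendritic cell markers (13) held 76 and cells with macrophage markers (11) held 68. In library 3, 48 of the 100 Lpl UMIs were in cells with 1 to 4 UMIs of C1qa and C1qb. The cells with Lpl were deep, at medians of 14106.5, 15033 and 11942.5 UMIs against 3553, 5458 and 4680.5 without. Deep cells reach 3 UMIs of a list more easily. The share of all cells of no class that did so was not counted, so these markers do not name a cell type. For Gpnmb the cells of no class held 30.1% of 113 UMIs, in 15 cells.

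In the thinned cells, where each cell was reduced to 1000 UMIs so that deep and shallow cells compare, Apoe was found in 71.9% ± 10.9 of macrophages (SD, n = 3 libraries), Lgals3 in 53.4% ± 14.7, Ctsd in 22.0% ± 11.7 and Fabp5 in 20.3% ± 17.1. Trem2 was found in 12.9% ± 12.96 and Gpnmb in 2.15% ± 3.72, and the share of Cd9 was 15.8% ± 21.3. Dendritic cells held Apoe in 0 of 211 cells, which allows up to 1.42% of cells with a UMI at this depth and sets no limit on cells expressing it. Without thinning 3 of the 211 held an Apoe UMI. Thinned dendritic cells held Lgals3 in 35.0% ± 6.99 and Cd9 in 20.4% ± 5.86. The share was higher in macrophages than in dendritic cells in every library for 5 members, Apoe, Lpl, Fabp5, Ctsd and Lgals3. Of these, Apoe, Lpl and Ctsd were also higher in every library without thinning. There Lgals3 was lower in macrophages in each library, at 77.4%, 90.0% and 81.5% against 83.8%, 93.0% and 96.8%, and Fabp5 was lower in libraries 1 and 3. At 2000 UMIs Fabp5 was lower in library 3 (4 of 27 macrophages against 12 of 63 dendritic cells), and Lpl was at 0 in both classes of library 2. With 3 libraries the exact sign-flip permutation test cannot go below 0.25, which was its p for each of these 5. The share of all genes that were higher in every library was not counted, so the 5 do not set the members apart from other genes. In all UMIs, without thinning, Apoe was held by 84.6% of macrophages on average over libraries, Ctsd by 76.5%, Trem2 by 47.2% and Gpnmb by 11.1%.

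Within macrophages, most cells held only some of the members. A macrophage held a median of 5 of the 10 (from 1 to 9). The mean correlation over pairs of members was 0.060, 0.033 and -0.024 in the thinned cells of libraries 1, 2 and 3, with 36, 21 and 28 of 45 pairs defined. The values are descriptions over 31, 10 and 27 cells, and pairs share the depth of the cells.

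In the unthinned values 11 of the 45 pairs were positive in each library and 7 were negative in each. In thinned cells only the pairs among Apoe, Lpl, Fabp5, Ctsd and Lgals3 were defined in all 3 libraries. Of these, 4 were positive and 2 negative in each library, so the counts with and without thinning have unlike bases. Pearson correlations of log2(CPM + 100) were 0.40, 0.59 and 0.39 for Fabp5 with Ctsd and 0.39, 0.59 and 0.19 for Fabp5 with Lgals3, while Ctsd with Lgals3 was at 0.26, 0.58 and -0.05. In thinned cells the pairs with Fabp5 were at 0.15, 0.59 and 0.28, and at 0.30, 0.28 and 0.11, but at 2000 UMIs Fabp5 with Lgals3 was at -0.04 and Ctsd with Lgals3 at -0.27 in library 2. Apoe with Trem2 was at 0.14, 0.50 and 0.31 in unthinned cells and, where it was defined, at 0.22 and 0.19 in the thinned cells of libraries 1 and 3. Apoe and Fabp5 were negative in all 3 libraries in unthinned cells (-0.06, -0.54 and -0.37), but in thinned cells library 1 was at 0.09. Apoe with Lgals3 was at -0.28, -0.29 and -0.37 in unthinned cells, and at 0.05 in the thinned cells of library 1. Gpnmb with Cd9 was at -0.20, -0.39 and -0.23 in unthinned cells and was not defined in thinned cells.

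**Figure D4:**
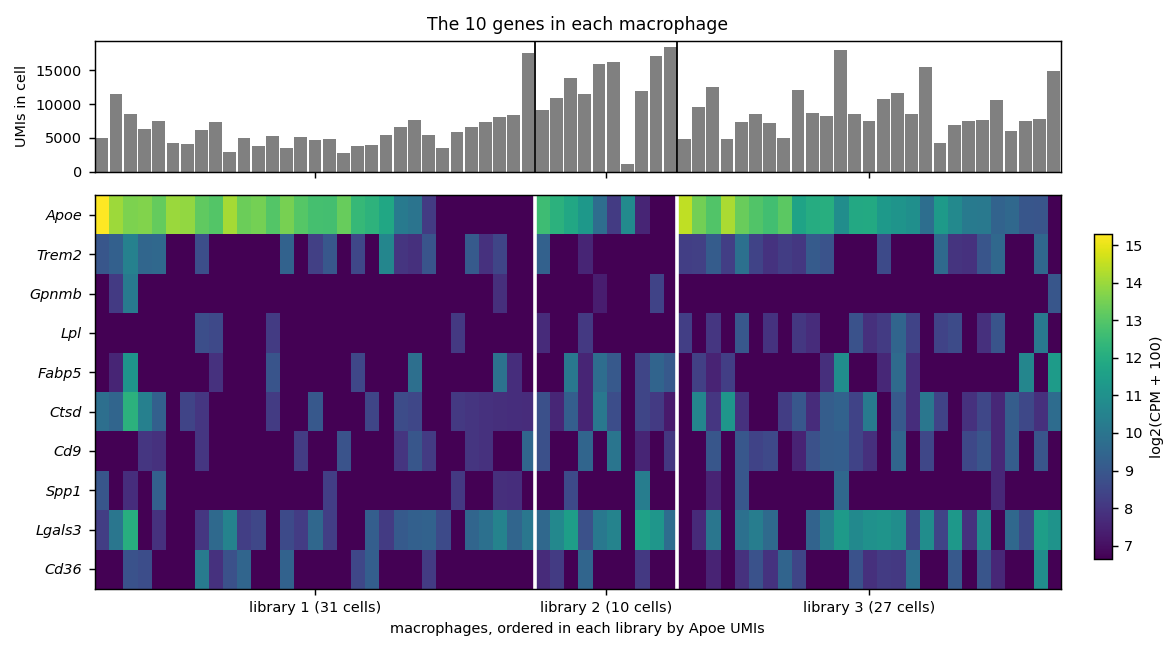
The 68 macrophages as columns, ordered within each library by Apoe UMIs, with total UMIs per cell above and log2(CPM + 100) of each gene as colour below; dark cells hold no UMI of the gene. Apoe was in 58 of 68 cells and Gpnmb in 6.

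Splitting the macrophages by Trem2 and by Gpnmb gave the values by cell. The 37 macrophages with a Trem2 UMI held Apoe at 7992, 4033 and 5660 CPM in libraries 1, 2 and 3, and those without at 5854, 1118 and 1536 CPM, higher with Trem2 in each library. Their median depths were 6346, 10289 and 7762 UMIs with Trem2 and 4644, 14886 and 8590 without, and the part of depth was not tested. The groups had 17, 2 and 18 cells with Trem2 and 14, 8 and 9 without. All 8 cells with 5 to 9 UMIs of C1qa and C1qb were without Trem2, at 1351 CPM of Apoe. In library 1, 2 such cells held 19 of the 468 Apoe UMIs without Trem2, but 21525 of the 79952 UMIs. The part of these cells in the Apoe difference was not tested. Fabp5 did not keep 1 direction, at 302, 48.6 and 41.6 CPM with Trem2 and 50.03, 511 and 925 CPM without.

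The 6 macrophages with a Gpnmb UMI (3, 2 and 1 in the libraries) all held Fabp5, Ctsd and Lgals3, and none held Lpl or Cd9. They held Ctsd at 1677, 575 and 736 CPM in libraries 1, 2 and 3, against 199, 226 and 400 CPM in the other 62, and 39 of their 77 Ctsd UMIs were in 1 cell of library 1. Fabp5 was at 928, 666 and 2609 CPM against 68.3, 354 and 255 CPM, and Lgals3 at 2070, 1635 and 2074 CPM against 410, 1482 and 1129 CPM. Apoe did not keep 1 direction, at 10598, 363 and 0 CPM against 6478, 2030 and 4251 CPM. Trem2 did not either, at 678, 0 and 0 CPM against 217, 64.4 and 228 CPM. The median depth of the cells with Gpnmb was 13199 UMIs against 7293. Depth moves detection, and the part of depth in the share of cells that hold these genes was not tested. The count of Gpnmb UMIs came from few cells, since 9 of 12 in library 1 and all 6 of library 3 were in 1 cell each.

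Genes whose pattern was most like a member's were sought among 794 genes found in at least 10% of the thinned macrophages of every library, by the mean Spearman correlation over the 3 libraries. For Apoe these were Pf4, a platelet-type chemokine that macrophages also make (0.51, 0.66 and 0.31), and Klf6 (0.44, 0.42 and 0.53). For Ctsd they were Psma2 and Fcgr1, at mean values of 0.51 and 0.46, and for Fabp5 H2-K1 was among them, at 0.52. For Lgals3 they were Prdx5 and Tgfb1, at 0.47 and 0.46, and for Lpl they were Atf3 and Cflar, at 0.49 and 0.43. Psma2, Cflar and Prdx5 were negative in library 3, and Atf3, Cflar and Psma2 were at 1 in library 2, where 1 thinned cell of 10 held Lpl and 1 held Ctsd. The mean over members was highest for Ftl1, a ferritin chain, at 0.16. Trem2, Gpnmb, Cd9, Spp1 and Cd36 were not defined in every library. The named genes were the highest of 794 values over 31, 10 and 27 cells. Picking the highest of so many gives large values also among unrelated genes, and whether these exceed that was not tested.

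The last question was whether members in lymphocytes could be free RNA, the RNA that leaks from cells and is captured in every droplet. The macrophage genes C1qc, Csf1r, Adgre1, Fcgr1 and Mrc1 were used as a scale for RNA leaked from macrophages. In B cells they reached 0 to 1.06% of their macrophage level and in T cells 0.031 to 1.09%. Trem2, Gpnmb and Lpl stood in or near that range, at no more than 1.20% in any library. In B cells 6 members (Apoe, Fabp5, Ctsd, Cd9, Lgals3 and Cd36) and in T cells 5 (Fabp5, Ctsd, Cd9, Spp1 and Lgals3) were above all 5 reference genes in every library. In T cells without a C1qa or C1qb UMI, C1qc fell from 0.22%, 0.050% and 0.066% to 0.0066%, 0.0025% and 0.0039%. Cd36 then joined the 5, and C1qc in such B cells was at 0. The scale thus also holds RNA of lymphocytes with C1qa or C1qb UMIs, and whether those were doublets was not tested. The share of all genes above the reference was not counted, so these counts do not set the members apart from other genes. The reference genes do not measure RNA leaked from other cells. T cells held 51.1% to 92.1% of the UMIs of Fabp5, Ctsd, Cd9, Spp1 and Lgals3. A level above the reference thus does not separate these 5 members from free RNA of T cells, which was not tested.

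Apoe in B cells was at 2.14%, 10.9% and 4.05% of the macrophage level and was held by few B cells at high counts. It was found in 9.64%, 11.5% and 10.3% of B cells, with up to 65, 90 and 70 UMIs in a cell, and the top 1% of B cells held 42.4%, 41.7% and 41.7% of the UMIs. B cells without any UMI of the macrophage genes held 94.1%, 93.2% and 90.6% of them. A macrophage gene was found in 4%, 3.41% and 4.38% of B cells with Apoe in libraries 1, 2 and 3. In B cells without Apoe it was found in 2.13%, 1.01% and 1.51%, lower in each library. Their median depths were 4759, 7944 and 7318 UMIs with Apoe and 4263, 6629 and 5749.5 without. The part of depth was not tested. B cells without an Ighd UMI, the gene of IgD, which naive B cells carry, held 238, 530 and 376 CPM of Apoe, and those with Ighd held 102, 75.9 and 66.6 CPM. The ranges did not overlap. The share of all genes without overlap between these kinds was not counted, so this does not set Apoe apart from other genes. Cd36 in B cells was at similar levels in both kinds, at 20.5, 16.6 and 11.7 CPM without and 18.9, 13.7 and 11.0 CPM with Ighd.

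In T cells the largest values came from few cells for Apoe and Spp1 and from many for Ctsd and Cd9. In library 1 a single T cell held 218 of 655 Apoe UMIs, and the top 1% of T cells held from 90.1% to 95.6% of the Apoe UMIs of a library. T cells without any UMI of the macrophage genes held 35.4%, 84.2% and 76.8% of them, and in library 1 a macrophage gene was found in 14.8% of T cells with Apoe and 1.93% of those without. Spp1 was in 3.60%, 1.60% and 1.18% of T cells, with 81.3% to 97.4% of its UMIs in the top 1%. T cells with a Cd4 UMI held 118, 30.6 and 15.3 CPM of Spp1, and those with Cd8a or Cd8b1 and no Cd4 held 4.80, 0.477 and 2.56 CPM, so that the former were higher in each library. Ctsd was found in 31.0%, 31.6% and 29.3% of T cells and Cd9 in 27.3%, 28.5% and 27.7%. Cd9 was at 108, 106 and 114 CPM in T cells with Cd4 and 46.9, 39.0 and 48.9 CPM in those with Cd8a or Cd8b1.

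**Figure D5:**
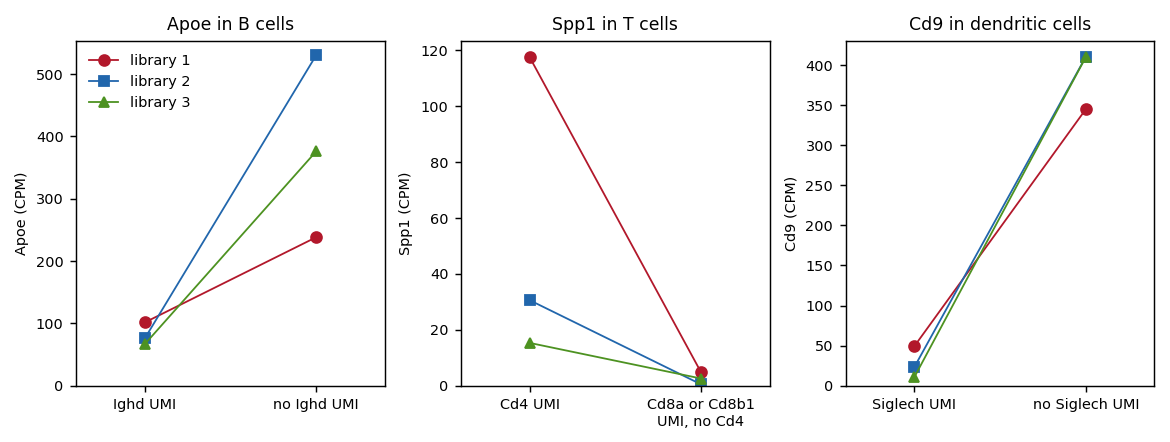
Levels in CPM (vertical axis, from 0) of Apoe in B cells with and without an Ighd UMI, of Spp1 in T cells with a Cd4 UMI or with Cd8a or Cd8b1 and no Cd4, and of Cd9 in dendritic cells with and without a Siglech UMI; each line joins the 2 values of 1 library. Every library went the same way in each panel, and the share of all genes that did so was not counted.

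Between the lymphocytes, a comparison chosen after their levels were seen, Apoe (log2 fold change of B over T cells 3.13, SE 0.33, adjusted p = 1.1e-06) and Cd36 (2.79, SE 0.26, adjusted p = 2.4e-07) were higher in B cells. Ctsd (-1.87, SE 0.15), Cd9 (-1.38, SE 0.14), Spp1 (-3.05, SE 0.59) and Fabp5 (-1.04, SE 0.31) were lower, with adjusted p between 5.2e-08 and 0.013. With free RNA subtracted Fabp5 was no longer called (adjusted p = 0.15). So 2 of 10 members were higher and 4 lower, where 20.9% of genes were higher and 23.3% lower. Lgals3, Trem2, Gpnmb and Lpl did not pass the test.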

How the data were processed

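Sorted islet CD45+ cells were sequenced with 10x 3′ chemistry. The authors deposited, for each of 3 libraries, a matrix of raw UMI counts made with Cell Ranger 6.0.1 on mm10 and not normalized or annotated. The samples came from 2 experiments that the labels do not tell apart, so batch was not tested. Here, cells with at least 1000 UMIs and under 10% mitochondrial UMIs were classed by marker UMIs, also requiring for myeloid cells no Cd3e and at most 1 Cd79a UMI. The members, gene lists and gates were chosen with earlier results of these data known.

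UMIs were summed per class and library and fitted with edgeR 4.0.16 (filterByExpr, TMM, quasi-likelihood test, library as block, R 4.3.3), with the 9 gate genes left out, Benjamini-Hochberg adjustment over all genes and a threshold of 0.05. SE is the log2 fold change over the square root of F. Sums of one library come from the same pooled mice; the deviations of same-library sums correlated at 0.008 to 0.64. Shares used cells thinned to 1000 UMIs, with Scrublet scores used only in an alternative, since its threshold marked 0 cells. The fit was tested on simulated data, where 198 of 200 genes changed by 2 on the log2 scale were found for macrophages against dendritic cells, with 8 false calls among 10724 genes. The changed genes were drawn only from those with a minimum expected count in macrophages, set from all classes together, and all classes were otherwise alike. The recovery therefore does not cover genes below that count, such as Gpnmb, Lpl, Trem2, Cd36 and Spp1, and Ctsd lay near it. DESeq2 1.42.0 was an alternative. In the setting named free RNA subtracted, the lower of the B and T cell fractions of each gene was found in each library. That fraction of the total UMIs was taken from each macrophage and dendritic cell sum. Lymphocyte expression itself is thus removed as if it were free RNA, and the median over all genes against B cells became -3.43. Up to 4 genes per list were named by size of called change. Some genes that this rule and the search for like patterns picked are not reported here. Libraries held 33851381 to 80806452 UMIs, and intervals cover counting error only. Replicates are separate libraries of pooled mice.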

Additional observations from a re-analysis of the deposited data

How the results depend on the processing

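Of 490 refitted member fold changes, 459 kept their direction and their side of the threshold. Some settings left the sums of a comparison unchanged, such as B against T cells with another macrophage gate, so part of this agreement was set by design. Against dendritic cells 110 stayed the same, 5 changed sign, 6 gained a call and 9 lost a call. Genes called against dendritic cells were 2234, and 978 to 1668 with 1 library left out; sums of macrophages and dendritic cells alone gave 1223 of 4996 tested. Against B cells 4164 genes were called (2686 to 3219 with 1 library left out, 6633 with free RNA subtracted), against T cells 4148 (2618 to 3302, and 6706), and for B against T cells 5092 (3345 to 5790, 3380 with no replicate block, and 2994 with free RNA subtracted, a step that changes only the macrophage and dendritic cell sums; the cause was not tested). Without the replicate block the members' calls were the same in number in each comparison. Members called against dendritic cells were 8, and 6 to 8 with 1 library left out. The members with a higher share of macrophages in every library were 5 against B cells and 5 against T cells, and 10 and 9 without thinning. The share of all genes that did so was not counted.

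Fabp5 against dendritic cells changed sign without library 3 (-0.11; 0.46 without library 2), with a gate of 20 C1qa and C1qb UMIs (-0.0027), with free RNA subtracted (-0.43) and without Siglech cells (-0.16), as did Lgals3 with free RNA subtracted (-0.0035). Between B and T cells, Trem2 turned without library 2 (-0.16) and in lymphocytes without C1qa or C1qb (-0.39), and Lgals3 turned without library 1 (0.34; -0.31 without library 3), with no block (0.069), in those lymphocytes (0.0023) and with free RNA subtracted (0.0015); none of these was called, and the cause was not tested. Lgals3 against dendritic cells was called in 6 settings, Spp1 was lost in 5 and Cd9 in 4; Spp1 over B cells was lost in 1, Cd9 over T cells in 2 and Fabp5 between B and T cells in 1. The study's cell limits left 18, 1 and 4 macrophages, so no fit was made. Gpnmb, Spp1 and Trem2 rested on 23, 46 and 112 macrophage UMIs, and changes in them of small size were not detectable.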
